A study of Mus musculus with 10 samples.

Results

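A set of 10 genes of bile acid and drug transport in the kidney was followed, taken by name: Slc51a, Slc51b, Slc10a2, Nr1h4, Abcc2, Abcc4, Abcb1a, Abcg2, Slc47a1 and Slco4c1. A probe set was used where the platform annotation gave it exactly 1 gene symbol and that symbol was one of these names. This found all 10 genes, with 12 probe sets, among the 18193 named genes and 45101 probe sets of the array. Not all of the genes export their substrates: 9 encode membrane transporters, of which 2, Slc10a2 and Slco4c1, are known for uptake, and Nr1h4 encodes a nuclear receptor.

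One group was 5 male C57BL/6 mice on a calorie restricted diet, and the other was 5 male C57BL/6 mice on a control diet. All were 30 months old, and each array held kidney RNA of 1 mouse. The sources used here do not say how strong the restriction was, when it began or whether mice had eaten before collection. The comparison asks which kidney transcripts differ between the diets at this age.

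Bile acids that pass the glomerulus are taken back by the proximal tubule. There the apical sodium-dependent carrier encoded by Slc10a2 brings them into the cell, and the organic solute transporter on the basolateral side, an obligate heterodimer of the Slc51a and Slc51b proteins, lets them out into the blood. The farnesoid X receptor FXR, encoded by Nr1h4, binds bile acids and controls genes of their transport, the organic solute transporter subunits among them. The remaining transporters serve the secretion of drugs, toxins and conjugates into urine: ATP-driven pumps (Abcc2, Abcc4, Abcb1a and Abcg2), a proton-coupled exchanger of organic cations (Slc47a1) and a basolateral uptake carrier (Slco4c1).

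The arrays differed in a measure of RNA quality that touches the results below. RNA that has broken down gives more signal from the 3' end of a transcript, and the log2 ratio of 3' to 5' signal, taken over Actb and Gapdh probe sets, was 1.67 ± 0.46 on calorie-restricted and 1.05 ± 0.26 on control arrays (SD, n = 5 each, 2-sided exact permutation p = 0.0476). Calorie-restricted replicates 1, 2 and 3 lay above every control at 2.21, 2.01 and 1.75, and replicates 4 and 5, at 1.24 and 1.16, lay inside the control range of 0.76 to 1.39. The tissue carried its defining markers: all 20 proximal tubule markers passed the filter on dim probe sets. Their summed signal was 314262 to 367552 on calorie-restricted and 221220 to 272786 on control arrays, with 11 of 20 higher, 0 lower and a median log2 difference of 0.39. Quantile normalization left 3 of 20 higher, with a median of 0.22, and with the RNA quality ratio as a covariate in limma 0 of 20 passed (15 higher at an unadjusted p below 0.05), with a median of 0.39. Of 7 macrophage markers 2 were lower and 0 higher (median -0.45), with sums of 12973 to 18769 on calorie-restricted and 15705 to 28356 on control arrays. Of 4 podocyte markers 1 was lower and 0 higher (median -0.27), and of 4 tested liver markers 1, Alb, was higher and 0 lower (median 0.79). Of 7 collecting duct markers 1 was higher and 0 lower, and of 8 for distal tubule and thick limb 0 passed, with 2 higher at an unadjusted p below 0.05. Over all tested genes 3.08% were higher and 3.02% lower. With the RNA quality covariate in limma 0 markers of these other cell types passed. At an unadjusted p below 0.05, 2 macrophage and 3 podocyte markers were then lower, and 2 liver markers and 1 of distal tubule and thick limb higher. The medians were then -0.38 for macrophage, -0.46 for podocyte and 0.92 for liver markers. In whole kidney a change in the number of cells of a type and a change in RNA per cell cannot be told apart. The part of these markers in the differences below was not tested.

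Among the 10 genes the subunit gene Slc51a rose in calorie-restricted kidney, by 1.90-fold, and no other passed the test. Of 9 genes above the filter on dim probe sets 1 was higher and 0 were lower at an adjusted p below 0.05 in limma, where 3.08% of all tested genes were higher and 3.02% lower. At an unadjusted p below 0.05 the count was 3 of 9 higher (Slc51a, Abcc4 and Slc47a1) and 0 lower, where 12.6% of all tested genes were higher and 13.8% lower. The median difference of the 9 was 0.18 on the log2 scale, beside -0.0052 over the 12196 genes tested. The diets overlapped in each of the 10 tested probe sets, while 7.12% of all tested probe sets had no overlap. Every difference is given as log2 signal, calorie restricted minus control, with limma's standard error and n = 5 per group, and intervals are 95% intervals of single probe sets.

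**Figure D1:**
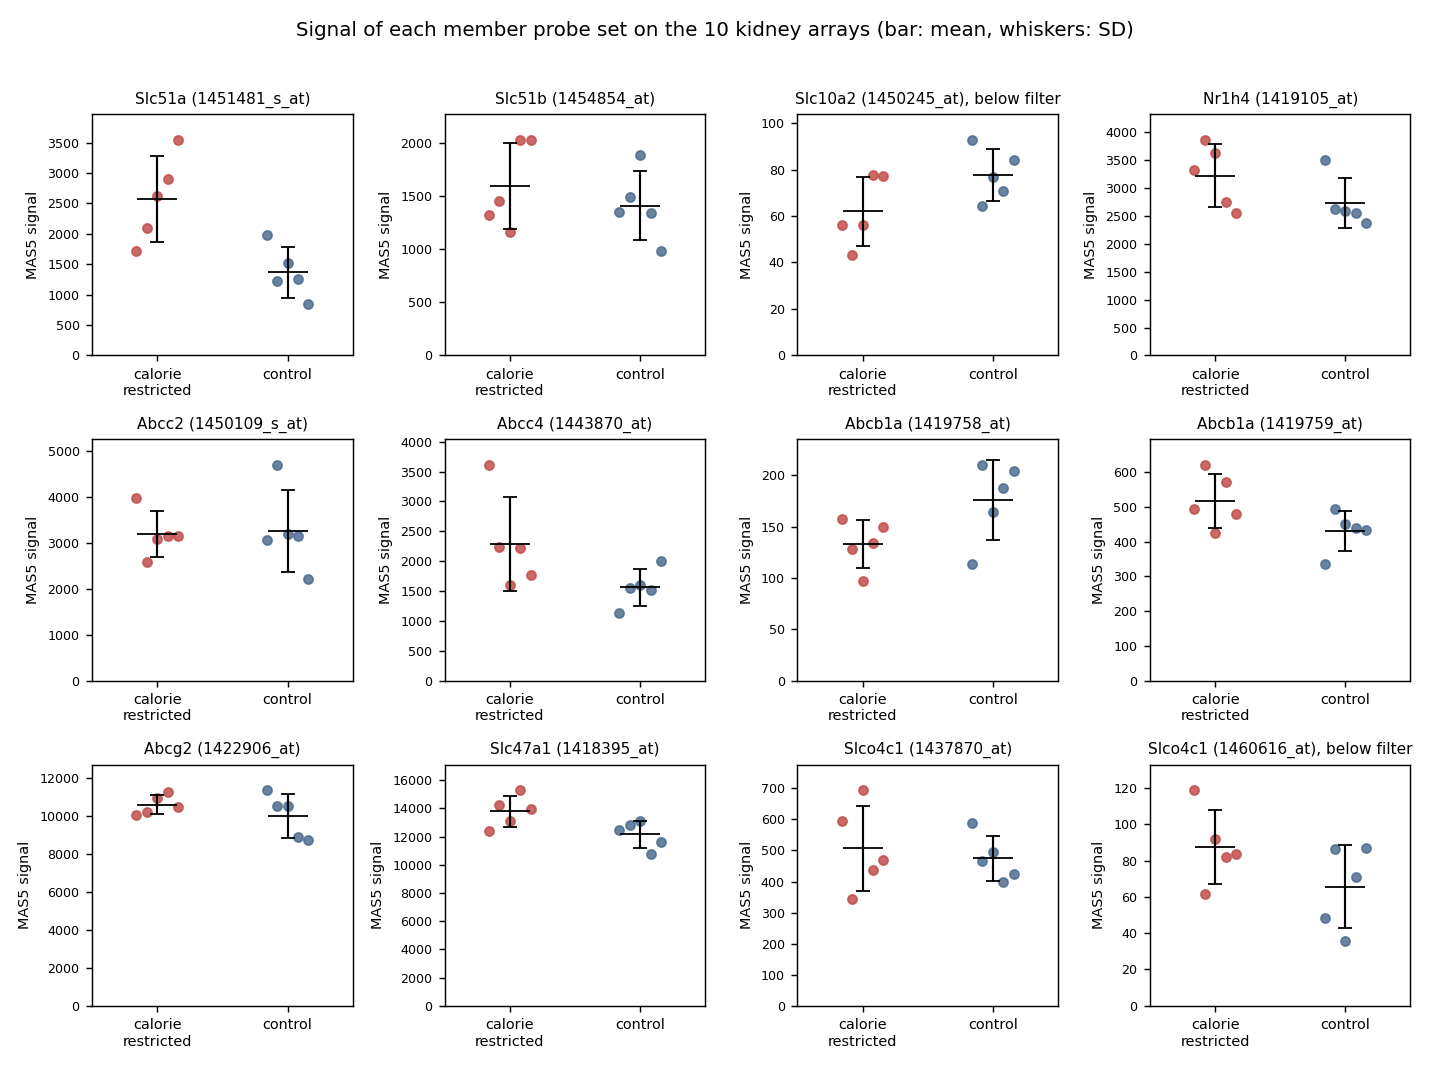
MAS5 signal (linear vertical axis from 0, arbitrary units) of the 12 probe sets of the 10 genes, 1 panel each, with calorie-restricted mice on the left and control mice on the right. Points are single mice, bars are means and whiskers SD (n = 5). For Slc51a 4 of 5 calorie-restricted points lie above every control point, and no panel shows groups free of overlap.

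Slc51a and Slc51b, the 2 chains of one basolateral exporter, are described first, with the stretches just upstream of their starts, since their differences between the diets were unequal. Both stretches are the 250 bases before the RefSeq start, from RefSeq on GRCm38.p6, and both genes lie on the minus strand: chr16:32487880-32488129 for Slc51a on chromosome 16 and chr9:65422774-65423023 for Slc51b on chromosome 9. They are written 5' to 3' along the gene, and capitals mark the letters AGGTCA on either strand and CACGTG:

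Slc51a: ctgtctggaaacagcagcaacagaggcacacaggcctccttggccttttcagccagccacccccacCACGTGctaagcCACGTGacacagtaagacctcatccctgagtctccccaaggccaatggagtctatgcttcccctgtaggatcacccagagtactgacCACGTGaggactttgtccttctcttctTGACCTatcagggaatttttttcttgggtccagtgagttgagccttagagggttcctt

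Slc51b: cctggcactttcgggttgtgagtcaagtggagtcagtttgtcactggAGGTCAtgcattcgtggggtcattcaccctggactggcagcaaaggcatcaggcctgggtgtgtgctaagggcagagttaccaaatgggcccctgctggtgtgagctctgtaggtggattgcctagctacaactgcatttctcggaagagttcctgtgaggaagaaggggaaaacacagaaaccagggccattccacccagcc

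AGGTCA is the half-site that nuclear receptors such as FXR bind, and FXR is best known to bind its inverted repeat, AGGTCANTGACCT, which holds the half-site on both strands. The inverted repeat was in neither stretch and in 0.00609% of the 32851 RefSeq windows of the same length (2 of them). Each stretch held 1 half-site, starting 58 bases upstream of Slc51a and 203 bases upstream of Slc51b, as 14% of all windows hold at least 1. The Slc51a stretch also held CACGTG, the E-box letters, 3 times, starting 184, 172 and 85 bases upstream, and the Slc51b stretch did not. At least 1 E-box was in 6.02% of all windows and at least 3 in 0.0609% (20 windows). The E-box was searched after the stretch had been read, both strands of every window were searched, and a match of letters is a description of the sequence only. Among the other members, Abcc4 held an E-box starting 205 bases upstream, and Nr1h4, Abcc2 and Abcg2 held half-sites. The part of these letters in the differences was not tested.

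Slc51a (probe set 1451481_s_at) encodes the larger chain, which spans the membrane several times. Its signal was 1723, 2104, 2620.0, 2904 and 3542 in the calorie-restricted mice and 1983, 1223, 1527, 1265 and 847 in the control mice. Every calorie-restricted value but the lowest, 1723, lay above every control, and that one lay below the highest control, 1983. The means were 2579 ± 706.0 in calorie-restricted and 1369 ± 420.1 in control kidney (SD, n = 5), a difference of 0.92 ± 0.22 with an interval of 0.46 to 1.39 (limma adjusted p = 0.0311). An ending of s_at marks a probe set that can bind related transcripts.

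Slc51b (1454854_at) encodes the small partner, with a single membrane pass, which the larger chain needs to reach the cell surface. Its signal was 1318, 1448, 1164, 2025 and 2025 in the calorie-restricted mice and 1353, 1488, 1881, 1341 and 981 in the control mice. Calorie-restricted replicates 4 and 5 stood above all controls, and the other calorie-restricted values lay among them. The difference of 0.17 ± 0.19 did not pass (adjusted p = 0.587), and its interval ran from -0.22 to 0.57. With 1 array left out it was 0.051 to 0.29, lowest without control replicate 5 and highest without control replicate 3, and it was 0.079 without either calorie-restricted replicate 4 or 5.

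Slc51a differed between the diets by more than Slc51b did. The log2 signal of Slc51a minus that of Slc51b was 0.39, 0.54, 1.17, 0.52 and 0.81 on calorie-restricted arrays and 0.55, -0.28, -0.30, -0.083 and -0.21 on control arrays. Only control replicate 1 reached into the calorie-restricted values. The difference between diets was 0.75 (2-sided exact permutation p = 0.0317, where 5 against 5 cannot go below 0.00794). This comparison was chosen after the values of both genes had been seen. It describes 2 probe sets, whose levels cannot be set against each other, and its p takes no account of that choice.

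The fitted differences of both chains were larger in replicates 4 and 5 alone and with the RNA quality ratio as a covariate. In replicates 4 and 5 of each diet, 2 arrays against 2, the Slc51a difference was 1.63 (adjusted p = 0.0166) and that of Slc51b 0.82 (adjusted p = 0.0751). That choice also leaves out control replicates 1 and 3, the highest controls for Slc51a (1983 and 1527). It keeps control replicate 5, the lowest control for both chains (847 and 981). The part of this choice in the larger differences was not tested. When that RNA quality ratio entered the fit as a covariate they were 1.45 ± 0.22 (adjusted p = 0.0421) and 0.59 (adjusted p = 0.236), and Slc51a was 1 of 9 probe sets of the whole array that passed in that fit. In 2 further settings Slc51a did not pass: it differed by 1.46 with that covariate after quantile normalization (adjusted p = 0.0596) and by 1.28 with calorie-restricted replicates 4 and 5 set against all controls (adjusted p = 0.190). The 2 calorie-restricted arrays with the lowest 3' to 5' ratio had the highest Slc51a and Slc51b signals of their group.

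**Figure D2:**
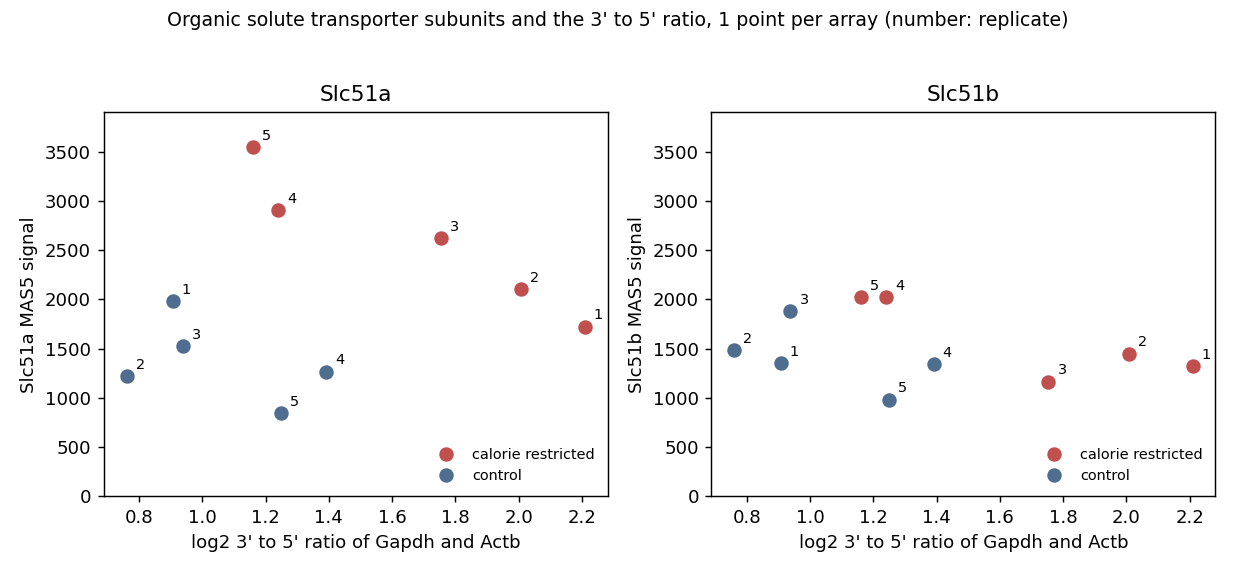
Slc51a (left) and Slc51b (right) MAS5 signal, vertical, against the log2 3' to 5' ratio of Gapdh and Actb, horizontal, 1 point per array with its replicate number; red points are calorie-restricted and blue points control mice. Calorie-restricted replicates 4 and 5, whose ratios of 1.24 and 1.16 lie in the control range, have Slc51a signals of 2904 and 3542.

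The Slc51a call depended on the arrays and settings used, while its difference stayed above 0. The difference stayed between 0.77 and 1.63 over 20 other settings, with an adjusted p of 0.0147 to 0.190. These settings are not independent, since they share arrays. A changed filter, the replicate block and eBayes without trend cannot move the difference from 0.92 and change only its p. Of the 10 arrays, leaving out any of 4 (calorie-restricted 1, 4 and 5, and control 1) kept the call. It was short of the threshold without calorie-restricted replicate 2 (0.99, adjusted p = 0.0594) or 3 (0.91, 0.0728) and without control replicate 2 (0.90, 0.0744), 3 (0.98, 0.0503), 4 (0.91, 0.0622) or 5 (0.77, 0.0529).

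**Figure D3:**
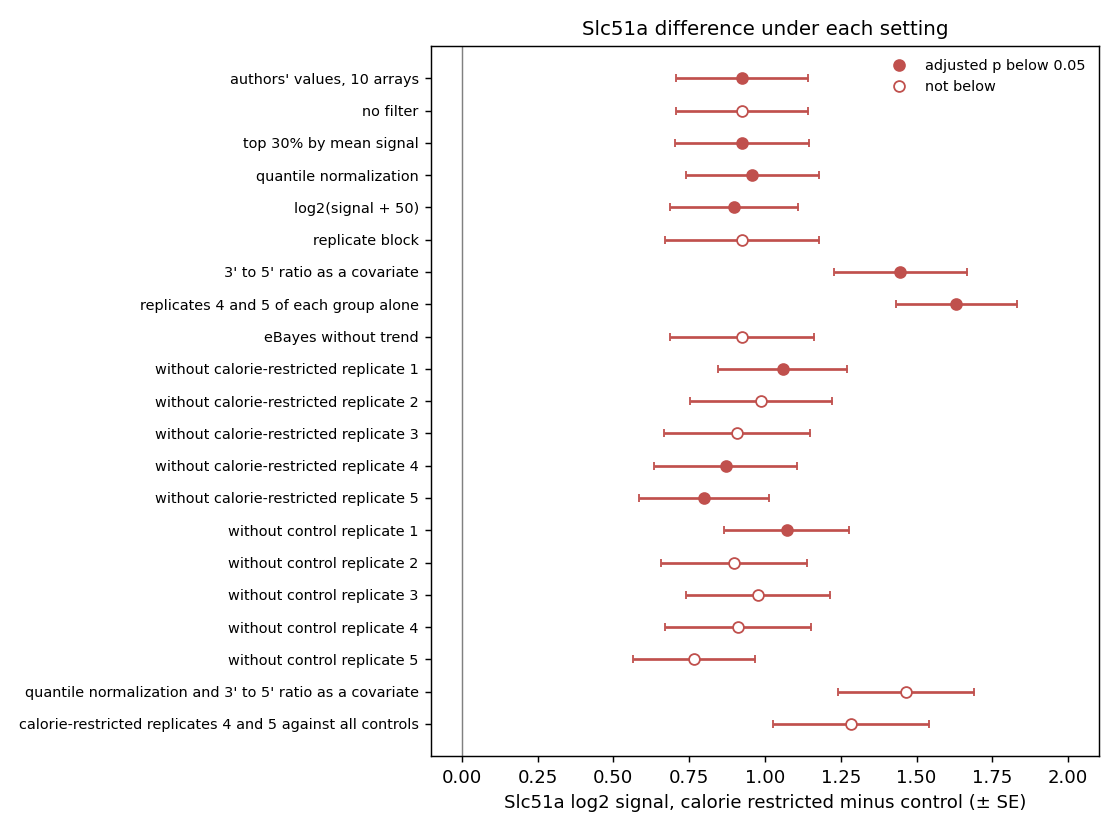
Slc51a log2 difference, calorie restricted minus control, horizontal, with limma's standard error as whiskers, under the authors' values and 20 other settings listed down the axis. Filled points have an adjusted p below 0.05; every point lies to the right of 0, from 0.77 to 1.63.

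Genes whose array-to-array pattern was most like that of the 2 chains, after each diet's mean was removed, were found over 10 arrays among 12196 genes. For Slc51a these were Tnfsf10 (Pearson r = 0.94), Snhg11 (0.93) and 2510002D24Rik (0.93), whose own log2 differences were -0.18, -0.27 and -0.31, none past the threshold. For Slc51b they were Med8 (0.97), Psmd14 (0.97) and Diablo (0.96), with differences of -0.023, -0.086 and -0.042. All these values share the arrays and their 3' to 5' ratios, and the highest of so many correlations is a description only.

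The apical bile acid carrier gene Slc10a2 (1450245_at) was dim and was not tested. Its signal was 56.1, 43.3, 56.1, 77.4 and 77.0 in the calorie-restricted mice and 92.6, 64.2, 76.9, 70.6 and 84.0 in the control mice. Calorie-restricted replicates 1, 2 and 3, the arrays of highest 3' to 5' ratio, lay below all controls, and replicates 4 and 5 lay among them. All values were under the median signal of each array, 115 to 136, so no fold is given.

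Nr1h4 (1419105_at), the bile acid receptor gene, did not pass. Its signal was 3332, 3859.8, 3623, 2757 and 2557 in the calorie-restricted mice and 3505, 2618, 2593, 2545 and 2369 in the control mice. Calorie-restricted replicates 2 and 3 exceeded every control, while control replicate 1 stood far above the other controls. The difference was 0.24 ± 0.13 (adjusted p = 0.278, interval -0.050 to 0.53). It was 0.33 without that control array (adjusted p = 0.123), 0.11 in replicates 4 and 5 of each diet and 0.076 with the RNA quality covariate.

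Abcc4 (1443870_at) encodes MRP4, an apical pump of the proximal tubule for urate, cyclic nucleotides and anionic drugs. Its signal was 3605, 2238, 1601, 2217 and 1768 in the calorie-restricted mice and 1132, 1557, 1601, 1522 and 2001 in the control mice. Calorie-restricted replicates 1, 2 and 4 lay above all controls, with replicate 1 the highest. The difference of 0.51 ± 0.20 had an interval of 0.088 to 0.94 and an adjusted p of 0.123. It was 0.33 without calorie-restricted replicate 1, 0.18 in replicates 4 and 5 of each diet and 0.16 when the RNA quality ratio was a covariate.

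Abcc2 (1450109_s_at) encodes MRP2, the apical pump for glutathione and glucuronide conjugates. Its signal was 3976, 2574, 3084, 3159.7 and 3146 in the calorie-restricted mice and 3063, 4689, 3189, 3140.4 and 2203 in the control mice. The calorie-restricted values lay inside the control range, which was the wider of the 2. The difference was -0.0030 ± 0.17 (adjusted p = 0.994), and its interval, -0.36 to 0.35, reached to either side of 0 by about the same amount.

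Abcb1a encodes a P-glycoprotein, the pump for many lipophilic drugs, and its 2 probe sets went in opposite directions. On the brighter probe set, 1419759_at, the signal was 495, 619, 425, 572 and 478 in the calorie-restricted mice and 336, 493, 449.6, 438 and 433 in the control mice. Here 3 of 5 calorie-restricted values were above all controls, with a difference of 0.27 ± 0.14 (adjusted p = 0.244). On the dimmer one, 1419758_at, the signal was 158, 128, 97.5, 134 and 149 in the calorie-restricted mice and 113, 209.9, 164, 188 and 205 in the control mice. Here all 5 calorie-restricted values were below the control median, with a difference of -0.39 ± 0.22 (adjusted p = 0.274). The mean of both differed by -0.059, so no direction is given for the gene. Its close paralogue Abcb1b also encodes a P-glycoprotein and differed by -0.30 ± 0.25 (adjusted p = 0.482). Endothelial cells also express Abcb1a. Of 11 endothelial markers 0 passed in limma, with 5 lower at an unadjusted p below 0.05, where 13.8% of all tested genes were. Their median difference was -0.22, with summed signals of 10754 to 12957 on calorie-restricted and 11955 to 15531 on control arrays. With the RNA quality covariate 0 were lower at an unadjusted p below 0.05 (median -0.12). In replicates 4 and 5 of each diet 1 was (median -0.27).

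Abcg2 (1422906_at) encodes BCRP, an apical pump that secretes urate and sulfated compounds. Its signal was 10016, 10215, 10908, 11248 and 10479 in the calorie-restricted mice and 11324, 10507, 10493, 8873 and 8696 in the control mice. The 5 calorie-restricted values lay inside the control range, in which replicates 4 and 5 were low. The difference was 0.090 ± 0.087 (adjusted p = 0.544, interval -0.096 to 0.28). After quantile normalization, which makes the distribution of signals equal on all arrays, it was -0.043. It was 0.31 in replicates 4 and 5 of each diet, 0.22 with the RNA quality covariate and 0.042 (without control replicate 5) to 0.14 (without control replicate 1) with 1 array left out.

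Slc47a1 (1418395_at) encodes MATE1, which exchanges protons for organic cations such as creatinine and metformin at the apical membrane. Its signal was 12418, 14245, 13069.5, 15267 and 13930.5 in the calorie-restricted mice and 12487, 12812, 13069.7, 10739 and 11625 in the control mice. Calorie-restricted replicates 2, 4 and 5 lay above all controls. The difference of 0.18 ± 0.082 (interval 0.0079 to 0.36) had an adjusted p of 0.174, and it was 0.017 after quantile normalization. It was 0.38 in replicates 4 and 5 of each diet (adjusted p = 0.150) and 0.32 with the RNA quality covariate (adjusted p = 0.172).

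Slco4c1 encodes an organic anion carrier, known in rat and human kidney for the basolateral uptake of digoxin and thyroid hormone. Its brighter probe set, 1437870_at, had signals of 595, 345, 693, 436 and 468 in the calorie-restricted mice and 588, 467, 494, 399 and 425 in the control mice. The calorie-restricted values reached both above and below all controls. The difference was 0.066 ± 0.18 (adjusted p = 0.848, interval -0.32 to 0.45). Its other probe set, 1460616_at, was below the filter, at 61.7 to 118.6 in calorie-restricted and 35.7 to 87.0 in control kidney.

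**Figure D4:**
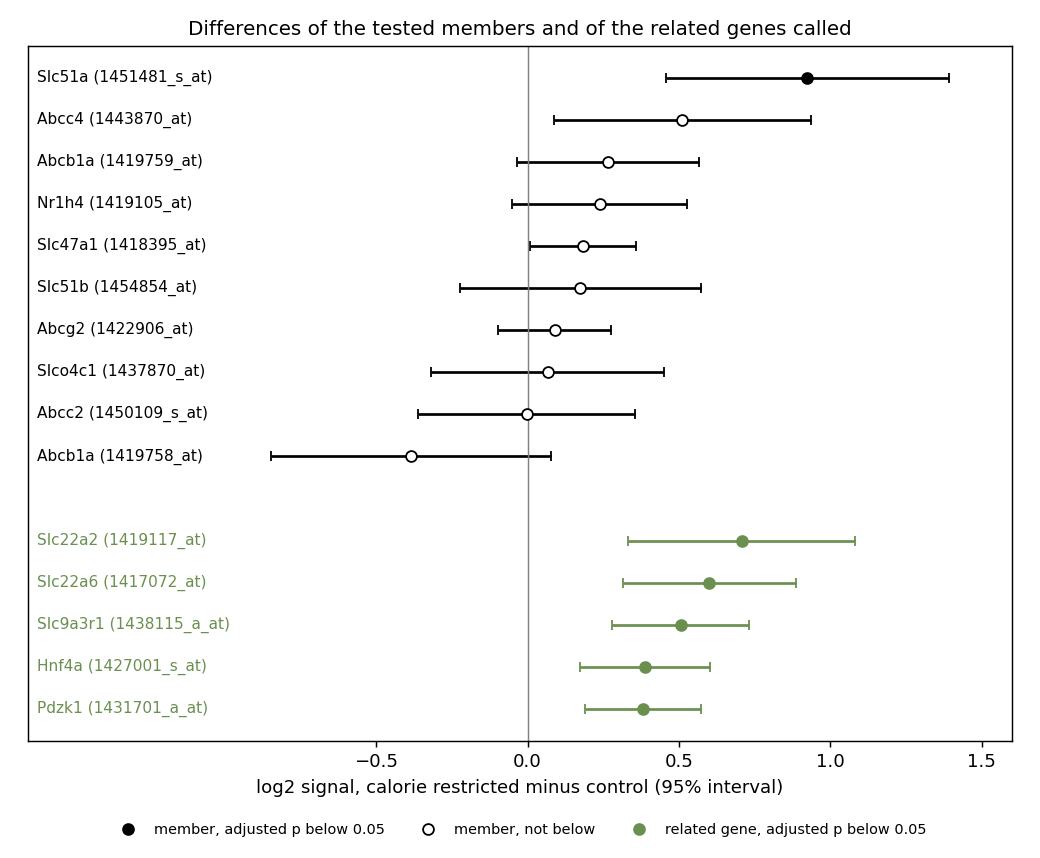
Log2 signal, calorie restricted minus control, of the 10 tested probe sets (black) and, below them, of the 5 related genes that passed (green), with 95% intervals of single probe sets from limma. Filled points have an adjusted p below 0.05: Slc51a at 0.92 stands alone among the black points, and the green points run from 0.38 to 0.71.

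Other genes of bile acid and drug transport, taken from a list of 43, were on the array in 39 cases, and 31 passed the filter. Of these 5 were higher and 0 lower, with a median difference of 0.15, where 3.08% of all tested genes were higher, and at an unadjusted p below 0.05 there were 9 of 31 higher and 5 lower, where 12.6% and 13.8% of all tested genes were. When the RNA quality ratio was a covariate 0 of 31 passed in limma, with 10 at an unadjusted p below 0.05, and with 1 array left out 0 to 7 passed. Among 14 tested genes of bile acid uptake, synthesis and the FXR axis 0 passed in limma, with 3 higher and 2 lower at an unadjusted p below 0.05. In replicates 4 and 5 of each diet alone 1 of the 14 was called higher, and without control replicate 1 there were 2. Of all tested probe sets 0.879% and 5.95% were called in these fits, in either direction. Nr0b2, the FXR-induced repressor SHP, had signals of 75.6 to 186 in calorie-restricted and 77.3 to 178 in control kidney, a difference of 0.024 ± 0.28 (adjusted p = 0.968). Osgin1, a growth inhibitor known as an FXR target, came nearest to the threshold in that group, at 0.48 ± 0.15 (adjusted p = 0.0633), followed by the organic anion carrier gene Slco2b1 at -0.31 (adjusted p = 0.105).

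Of 10 multidrug pumps and uptake partners, 2 were higher and 0 lower. At an unadjusted p below 0.05 there were 3 higher and 2 lower, where 12.6% and 13.8% of all tested genes were. The 2 that passed encode basolateral uptake carriers of the proximal tubule, Slc22a2 and Slc22a6. Their relatives Slc22a8 (OAT3, 0.20, adjusted p = 0.124) and Slc22a7 (OAT2, -1.67, adjusted p = 0.127) did not pass. The pump gene Abcc10, at -1.12 ± 0.36 (adjusted p = 0.0766), did not pass either. Slc22a2, the organic cation carrier OCT2 that works in series with MATE1, averaged 5846 ± 947 in calorie-restricted and 3675 ± 1233 in control kidney (SD, n = 5), a difference of 0.71 ± 0.17 (adjusted p = 0.0348). Slc22a6, the organic anion carrier OAT1, averaged 9269 ± 1182 in calorie-restricted and 6177 ± 1326 in control kidney, a difference of 0.60 ± 0.13 (adjusted p = 0.0258). Its dimmer probe set differed by 0.059 and did not pass. Slc22a6 is also 1 of the proximal tubule markers.

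Of 8 regulators and scaffolds, 3 were higher by their brightest probe set, each without overlap of the diets, where 7.12% of all tested probe sets had none. Slc9a3r1 encodes NHERF1, a scaffold beneath the apical membrane that binds the tails of transporters. It had signals of 14297 to 20349 in calorie-restricted and 10427 to 12945 in control kidney, a difference of 0.51 ± 0.11 (adjusted p = 0.0216). Its 2 other probe sets differed by 0.53 (adjusted p = 0.0157) and 0.24 (adjusted p = 0.150). Pdzk1, the related scaffold, had signals of 14415 to 15959.7 in calorie-restricted and 9947 to 14212 in control kidney, a difference of 0.38 ± 0.089 (adjusted p = 0.0302). Hnf4a, a nuclear receptor that maintains proximal tubule genes, differed by 0.39 ± 0.10 on its brightest probe set (adjusted p = 0.0388). Its other probe sets differed by -0.55, -0.13 and 0.055, none of them past the threshold, so no direction is given for that gene. Ppara, of the same group, is not among the genes counted as higher. Its brightest probe set differed by 0.15 ± 0.12 and did not pass (adjusted p = 0.462). Of its other probe sets, 1 differed by 0.64 ± 0.14 and passed (adjusted p = 0.0233). The other differed by 0.089 and did not (adjusted p = 0.704). After quantile normalization the differences of Slc9a3r1 and Pdzk1 were 0.31 and 0.20 and no longer passed. Those of Slc22a6 and Slc22a2 were 0.50 and 0.68 and did. In replicates 4 and 5 of each diet Slc22a6 passed at 0.64 (adjusted p = 0.0343). Slc22a2 at 0.71 (adjusted p = 0.0559), Pdzk1 at 0.57 (0.0585), Slc9a3r1 at 0.34 (0.213) and Hnf4a at 0.20 (0.479) did not.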

How the data were processed

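The deposited value of a probe set is a linear intensity, the MAS5 signal; per the submitters' processing notes the authors used Affymetrix Expression Console, and no versions are given. A mean trimmed by 2% at each end came to 500.003 on each array, while the distributions of the deposited intensities stayed unequal. The untrimmed mean was 786 to 831 on calorie-restricted and 755 to 768 on control arrays, without overlap. The part of this in the differences of the brightest genes and in the summed marker signals was not tested. Precision is limited by having 5 arrays per group.

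Signals below 1 were set to 1 (0 among the members) and log2 was taken. Probe sets were tested where their mean log2 signal reached the median of all probe sets other than Affymetrix controls, log2 6.81, which left 22519 probe sets. Of all probe sets 34958 had 1 gene symbol, 932 several and 9211 none. Limma 3.58.1 in R 4.3.3 (eBayes with an intensity trend, 2-sided) was fitted on the whole table, with Benjamini-Hochberg adjustment over it and a threshold of 0.05. A gene was counted by its brightest probe set. All 10 members were named, with every probe set. Related genes were named where they passed, and in the FXR axis, where 0 passed, the 2 nearest to the threshold were named. Nr0b2, Abcb1b, Abcc10, Slc22a7, Slc22a8 and Ppara were named after their values were seen. Members and lists were chosen with earlier results of these data known. Alternatives were quantile normalization, log2(signal + 50), all probe sets or the brightest 30% tested, eBayes without trend, a block for the replicate number, a covariate for the RNA quality ratio, replicates 4 and 5 alone, and each array left out. Added after the data were seen were the covariate with quantile normalization, all controls against calorie-restricted replicates 4 and 5 only, and the Slc51a to Slc51b comparison. Promoter windows came from RefSeq (GRCm38.p6) and 9 of 10 members had one.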

Additional observations from a re-analysis of the deposited data

Results flagged for a closer look

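Of 24 groups of 5 values (12 probe sets in each diet), 1 held a mouse whose value lay apart from the rest by Dixon's test, about as many as chance gives at 1 in 20. It was control replicate 1 for the bile acid receptor gene Nr1h4, with a signal of 3505, while the other control mice lay between 2369 and 2618. On the log2 scale, which the test used, the gap as a share of the range of the 5 control values was 0.745, above the 95% critical value for 5 samples.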

How the results depend on the processing

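The Slc51a difference, which some settings cannot change, was above 0 in all 20 settings. It passed the threshold in 9 of them and was short of it in 11. The count of members called was 1, and it was 0 without a filter, with the replicate number as a block (Slc51a adjusted p = 0.0964), without the eBayes trend, with quantile normalization plus the covariate and with only replicates 4 and 5 kept of the calorie-restricted group. In these limma fits 2 or 3 members had an unadjusted p below 0.05. With 1 array left out the count was 0 to 1. The count of related genes called was 5. It was 2 after quantile normalization and in replicates 4 and 5 alone, 1 with the replicate block, and 0 without a filter, without the trend, with the covariate (with or without quantile normalization) and with only replicates 4 and 5 kept of the calorie-restricted group, with 7 to 14 at an unadjusted p below 0.05 there. It was 0 to 7 with 1 array left out (0 when any of calorie-restricted arrays 1, 2 and 3 or control array 2 was dropped, with 12 or 13 at an unadjusted p below 0.05). Without calorie-restricted replicate 4 the related genes called were 5 higher and 2 lower, and without calorie-restricted replicate 5 they were 5 higher and 1 lower. Samples that share a replicate number did not deviate together (correlations of -0.14 to -0.087), and the replicate block moved the calls over all probe sets to 127, against 1371 without it. That count was 287 without a filter, 751 after quantile normalization, 243 without the trend, 198 in replicates 4 and 5 alone, 9 with the covariate and 125 to 2481 with 1 array left out. Proximal tubule markers called higher were 11, against 3 without a filter, without the trend, after quantile normalization and in replicates 4 and 5 alone. They were 4 with the replicate block, 0 with the covariate and 4 to 12 with 1 array left out. In the fit without control replicate 1, 1 of these markers was also called lower. The 3' to 5' ratio difference of 0.62 was 0.49 to 0.75 with 1 array left out, with an exact permutation p of 0.0397 to 0.0794. The Slc51a to Slc51b comparison kept its direction and an exact permutation p of 0.00794 to 0.0476 with 1 array left out and after quantile normalization; in replicates 4 and 5 alone it was 0.81, where 2 against 2 cannot pass (p = 0.333).

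The differences of 5 genes turned sign in some setting, and none of them passed in any. Abcc2 was 0.10 with the covariate, 0.093 with it plus quantile normalization, 0.26 in replicates 4 and 5 alone and -0.13 to 0.14 with 1 array left out. With only replicates 4 and 5 kept of the calorie-restricted group Nr1h4 was -0.024 and Slco4c1 -0.059. Slco4c1 was -0.057 to 0.19 with 1 array left out. Abcg2 was -0.043 after quantile normalization, and Abcb1a -0.059 as the mean of its probe sets. The cause was not tested. Slc10a2 has no value in the settings that keep the filter.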
